A study of Mus musculus with 6 samples.

Results

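The genes described here are 10 imprinted regulators of growth, *Igf2*, *H19*, *Igf2r*, *Cdkn1c*, *Grb10*, *Plagl1*, *Peg3*, *Mest*, *Dlk1* and *Meg3*, which were chosen by name and matched by Ensembl identifier to a gene count table of mouse intestinal adenomas. A row was found for 8 of the 10, among 34866 rows in all, and *H19* and *Meg3* were not analysed here. Of these 8 genes, 7 passed the filter on low counts and were among the 16536 genes tested, and *Dlk1* did not pass it. The adenomas came from C57BL/6J mice aged 100 to 120 days with the genotype *Apc1322T*/+ (3 libraries) or *ApcMin*/+ (3 libraries). Both alleles encode a truncated Apc protein, so every mouse carried an *Apc* mutation over a wild-type allele, no normal mucosa is compared here, and a gene's count does not show which *Apc* allele is present. The protein made from *Apc1322T* is described by the study as partially functional. By the study's methods the adenomas were excised and homogenised whole, and RNA from several extractions of a single mouse was typically pooled, so a library holds the stroma of the adenoma beside its epithelium. It is not stated beyond this that the 3 libraries of a genotype are separate mice, and p-values then measure the spread between these samples.

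An imprinted gene is expressed mainly from the copy inherited from a particular parent, because DNA methylation laid down in the germ line differs between the parental copies. Many of the genes expressed from the paternal copy promote growth of the fetus and placenta, and many of those expressed from the maternal copy restrain it. Among the genes here, *Igf2*, *Plagl1*, *Peg3*, *Mest* and *Dlk1* are paternally expressed, and *H19*, *Igf2r*, *Cdkn1c*, *Grb10* and *Meg3* maternally. Most are strongly expressed in the fetus and are turned down after birth. In the intestine *Igf2* is best known for its overexpression in colorectal tumours. Gene counts of this kind add both parental copies, so imprinting itself was not measured.

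The libraries held between 23132461 and 33518324 estimated counts, with which 3 counts correspond to between 0.0895 and 0.130 CPM (a count scaled to a common library total, before TMM), as far as counting error goes. The libraries were distinct, with a chi-square per gene of at least 23.3 between any of them, where resampled copies would give about 1. Epithelial markers were abundant in every library, with *Epcam* at 56608 to 75302 counts. Epithelium was therefore present throughout, though these markers do not tell adenoma from normal mucosa. Genes of other organs were present too, some in 2 single libraries and some at a higher level across 1 genotype. *ApcMin* replicate 1 held transcripts of the exocrine pancreas, with 2679 counts of *Ctrb1* against at most 16 elsewhere, and *Apc1322T* replicate 2 held those of fat, with 239 counts of *Adipoq* against at most 1. Genes of squamous and stomach epithelium were higher in all 3 *ApcMin* libraries. Their 9 markers summed to 28.9 to 52.9 CPM in the *Apc1322T* libraries and 83.1 to 123 CPM in the *ApcMin* libraries, with none at 0 throughout. Of the 8 tested, 7 had a higher estimate in *ApcMin* and 1 a lower one, with a median log2 fold change of 1.92 and 0 called. The *ApcMin* libraries were all above the others for 5 of the 8 (11.0% of all genes) and all below for 1 (9.96%). *Krt14*, a keratin of squamous epithelium, had 86, 75 and 108 counts against 759, 554 and 701, and *Lipf*, the gastric lipase, 4, 10 and 4 counts against 312, 436 and 239. The stomach gene *Gif* went the other way, with 80, 29 and 48 counts against 7, 15 and 41. *Pgc*, also of the stomach, overlapped, at 1141, 918 and 404 counts against 1128, 477 and 2514. As the summed level of these transcripts follows genotype, their part in the differences described here cannot be told apart from it. All 8 fibroblast, all 8 smooth muscle and all 8 endothelial markers had a higher mean estimate in *ApcMin* adenomas, with median log2 fold changes of 0.92, 0.69 and 0.58, and all 8 epithelial markers a lower one, with a median of -0.37. Of the immune markers, 6 of 7 tested also had a higher estimate, with a median of 0.55. None of these markers passed the test. In bulk tissue, fewer cells of a type and less RNA per cell cannot be told apart. Summed over the 8 genes, fibroblast markers stood at 692 to 1685 CPM in *Apc1322T* and 1113 to 3524 CPM in *ApcMin* libraries, which overlapped. Endothelial sums also overlapped, at 144 to 242 against 231 to 317 CPM. Smooth muscle sums did not, at 172 to 319 CPM in *Apc1322T* against 406 to 541 CPM in *ApcMin*. Epithelial sums did not either, at 14045 to 17271 against 11434 to 13443 CPM. As the smooth muscle and epithelial sums follow genotype, their part in the differences described here cannot be told apart from it.

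At an adjusted p under 0.01 in edgeR's quasi-likelihood test, 0 of the 7 imprinted genes were called, as was the case for 0 of all genes (0%). DESeq2 called 1.11% of its 17503 genes, 0 of the 7 among them, and limma-voom called 0. At an unadjusted p under 0.05, 3 of the 7 were higher in *ApcMin* adenomas, where 7.49% of all genes were, and 0 were lower, where 7.60% of all genes were. The same 3 genes, *Grb10*, *Plagl1* and *Igf2*, were those whose 3 *ApcMin* libraries all lay above the 3 *Apc1322T* libraries, which was so for 11.0% of all genes. None of the 7 showed the opposite separation, found for 9.96% of all genes. The estimate was above 0 for 4 of the 7, against 52.4% of all genes. The median log2 fold change of the 7 was 0.26, against 0.02 over all genes, where a positive value denotes a higher level in *ApcMin*. It was 0.60 when *Apc1322T* replicate 1 was left out. The number at an unadjusted p under 0.05 fell from 3 to 1 without *ApcMin* replicate 1 and to 0 without both libraries with pancreatic or adipose transcripts. The number of non-overlapping genes stayed at 3 in both cases and was 5 without *Apc1322T* replicate 1. With fewer libraries such a separation is reached more easily, and the share over all genes was not computed for these runs.

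**Figure D1:**
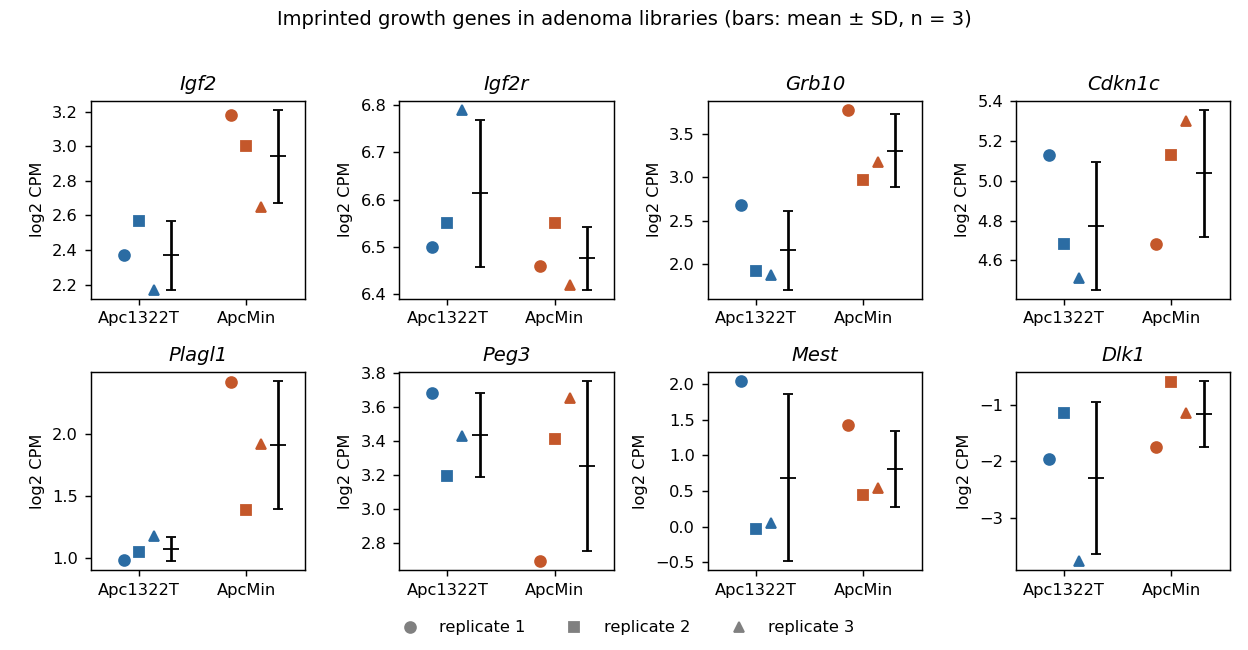
Log2 CPM (prior count 2) of the 8 genes with a row, 1 panel a gene, for the 3 *Apc1322T* libraries (blue) and the 3 *ApcMin* libraries (orange), with symbols for the replicate number, bars for the mean ± SD (n = 3) and a separate vertical scale in each panel. *Igf2*, *Grb10* and *Plagl1* show no overlap between the genotypes, and the other 5 genes do overlap.

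Per kilobase of annotated exon, the levels of these genes covered a wide range. The mean level in CPM per kilobase (RPKM) over the 6 libraries was 15 for *Cdkn1c* and 10.1 for *Igf2r*, which was at or above that of 76.4% and 68.2% of the tested genes. The libraries of these leading genes overlapped in RPKM, at 11.2 to 19.3 and 9.21 to 11.9. A gap then separated them from *Igf2* (1.12), *Grb10* (0.806), *Peg3* (0.774), *Mest* (0.474) and *Plagl1* (0.376), each of which overlapped its neighbour in this order. *Dlk1* was lowest, with a mean of 0.0517 RPKM, and its highest library (0.104) was below the lowest library of every other member. The genes also varied by different amounts between libraries. The SD of log2 CPM over all 6 libraries was 0.82 for *Mest*, 0.74 for *Grb10* and 0.57 for *Plagl1*, all above the upper quartile of the tested genes (0.48), while that of *Igf2r* was 0.13, below the lower quartile (0.14).

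*Igf2* encodes insulin-like growth factor 2, a secreted growth factor that signals through the IGF1 and insulin receptors. On GRCm38 the gene lies on chromosome 7 from 142650766 to 142666816, on the minus strand, 72.6 kb from *H19*, with which it shares enhancers. Its counts were 139, 123 and 101 in *Apc1322T* replicates 1, 2 and 3, and 323, 202 and 196 in *ApcMin* replicates 1, 2 and 3. On the log2 CPM scale these are 2.37, 2.57 and 2.17 against 3.18, 3.00 and 2.65, so that the lowest *ApcMin* library was just above the highest *Apc1322T* library. The log2 fold change was 0.59 (standard error, SE, 0.21, 95% interval 0.09 to 1.09), a ratio of 1.51, with an unadjusted p of 0.0272 and an adjusted p of 0.307 from edgeR's quasi-likelihood test. Leaving out each library in turn gave values between 0.46 and 0.73, and it was 0.57 without both libraries with pancreatic or adipose transcripts. A further gene model, *Gm49394*, shares exons of *Igf2* on the same strand and took between 0 and 12.75 counts a library from it. With those counts added, the log2 fold change was again 0.59.

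The counts of *Igf2* pool all of its transcription start sites, of which RefSeq places 4 in separate windows of 300 bases (250 before to 50 after the start, assembly GRCm38.p6). The windows differ in CpG content, with 7, 24, 14 and 2 CpG dinucleotides from the most downstream to the most upstream start, where the median over 32817 windows of the mouse annotation is 7. The pair shown are those holding a GC box, the letters GGGCGG on either strand, which are printed in capitals and which Sp1-like factors can bind. Such a match is present in 35.6% of all windows.

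Igf2, chr7:142657447-142657746, minus strand: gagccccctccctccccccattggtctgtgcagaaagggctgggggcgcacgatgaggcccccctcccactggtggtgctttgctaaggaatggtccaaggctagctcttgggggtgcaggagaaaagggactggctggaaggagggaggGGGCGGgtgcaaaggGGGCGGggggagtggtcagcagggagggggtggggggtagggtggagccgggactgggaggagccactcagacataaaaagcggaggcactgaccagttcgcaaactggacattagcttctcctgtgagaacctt
Igf2, chr7:142658755-142659054, minus strand: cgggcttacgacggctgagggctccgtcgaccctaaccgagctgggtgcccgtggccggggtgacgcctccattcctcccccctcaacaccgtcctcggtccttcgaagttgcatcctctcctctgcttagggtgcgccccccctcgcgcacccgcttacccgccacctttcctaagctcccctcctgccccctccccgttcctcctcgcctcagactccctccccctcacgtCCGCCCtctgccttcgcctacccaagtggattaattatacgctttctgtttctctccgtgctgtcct

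The first of these windows holds 2 GC boxes and the second 1, and neither holds TATAAA on either strand, which 13.6% of all windows contain. Which start was used in these adenomas was not measured.

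*Igf2r* encodes the cation-independent mannose-6-phosphate receptor, which carries IGF2 to the lysosome for degradation and so lowers its supply outside the cell. The gene spans chromosome 17 from 12682406 to 12769664, on the minus strand. Its counts were 2464, 1967 and 2528 in the *Apc1322T* libraries and 3141, 2376 and 2713 in the *ApcMin* libraries. The log2 CPM values, 6.50, 6.55 and 6.79 against 6.46, 6.55 and 6.42, overlapped and made this the steadiest of the 7 genes. The log2 fold change was -0.14 (SE 0.10, 95% interval -0.38 to 0.10) with an adjusted p of 0.511. The within-library difference of log2 CPM, *Igf2* minus *Igf2r*, cancels the library size. It was -4.13, -3.98 and -4.62 in the *Apc1322T* libraries and -3.27, -3.54 and -3.78 in the *ApcMin* libraries. The ligand thus stood higher against this receptor in every *ApcMin* library, by 0.71 on average. An exact permutation test (two-sided) gave p = 0.10, the smallest that the 20 assignments of 6 libraries allow.

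*Grb10* encodes an adaptor protein that binds the activated insulin and IGF1 receptors and restrains their signalling. Its position is chromosome 11 from 11930508 to 12038683, on the minus strand. Its counts were 173, 78 and 82 in *Apc1322T* replicates 1, 2 and 3, and 489, 197 and 282 in *ApcMin* replicates 1, 2 and 3. The log2 CPM was 2.68, 1.92 and 1.87 against 3.78, 2.97 and 3.17. The genotypes were apart, although *Apc1322T* replicate 1 lay nearer to *ApcMin* replicate 2 than to the other libraries of its own genotype. With a log2 fold change of 1.15 (SE 0.32, 95% interval 0.39 to 1.91), or 2.22 times, *Grb10* had the largest estimate of the 7 genes. In edgeR's quasi-likelihood test the unadjusted p was 0.00946 and the adjusted p 0.279. DESeq2's Wald test gave an adjusted p of 0.0410, also above the threshold of 0.01. Leaving out each library in turn gave a log2 fold change between 0.87 and 1.48, and it was 0.74 without both libraries with pancreatic or adipose transcripts, a ratio that rests on 2 libraries a genotype.

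RefSeq places 2 start windows at *Grb10*, and they are shown because they differ so plainly in sequence.

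Grb10, chr11:12037371-12037670, minus strand: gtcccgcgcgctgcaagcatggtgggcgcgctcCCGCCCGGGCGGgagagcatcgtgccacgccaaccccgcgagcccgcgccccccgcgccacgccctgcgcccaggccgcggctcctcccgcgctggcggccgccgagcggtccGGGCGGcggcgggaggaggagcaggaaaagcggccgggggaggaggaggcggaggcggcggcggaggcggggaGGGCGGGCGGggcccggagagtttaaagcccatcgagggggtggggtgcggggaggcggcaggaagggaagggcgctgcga
Grb10, chr11:12027922-12028221, minus strand: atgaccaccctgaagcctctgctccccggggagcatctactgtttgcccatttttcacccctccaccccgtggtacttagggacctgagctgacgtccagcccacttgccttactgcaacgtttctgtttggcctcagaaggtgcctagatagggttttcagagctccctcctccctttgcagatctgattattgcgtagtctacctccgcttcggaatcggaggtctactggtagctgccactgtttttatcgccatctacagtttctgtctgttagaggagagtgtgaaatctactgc

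The upstream window holds 45 CpG dinucleotides, at least as many as 98.3% of all windows, a GC content of 80% and 5 GC boxes (capitals, counting those that overlap). The downstream window holds 9 CpG dinucleotides, a GC content of 52.3% and no GC box. In mouse, *Grb10* is known to be expressed from the maternal copy in most tissues and from the paternal copy in neurons, from different promoters. Neither window was assigned to a parental promoter here, and the gene counts do not tell the starts of *Grb10* apart.

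*Cdkn1c* encodes p57Kip2, an inhibitor of cyclin-dependent kinases that holds cells out of the division cycle. It lies on chromosome 7 from 143458339 to 143461050, on the minus strand, 791.5 kb from *Igf2* in the same imprinted region. It had 950, 539 and 520 counts in the *Apc1322T* libraries and 917, 886 and 1248 counts in the *ApcMin* libraries. The log2 CPM was 5.13, 4.68 and 4.51 against 4.68, 5.13 and 5.30, which overlapped. The log2 fold change of 0.26 (SE 0.22, 95% interval -0.25 to 0.78, adjusted p = 0.565) came with an interval that spans 0.

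*Plagl1*, also called *Zac1*, encodes a zinc finger transcription factor that can halt the cell cycle and that is known to regulate several other imprinted genes. It lies on chromosome 10 from 13060504 to 13131694, on the plus strand. Its counts were 52, 42 and 50 in the *Apc1322T* libraries and 189, 65 and 117 in the *ApcMin* libraries. The log2 CPM of 0.99, 1.05 and 1.18 was tight in *Apc1322T* (SD 0.098), and that of 2.42, 1.39 and 1.92 was spread in *ApcMin* (SD 0.51) but above it. The log2 fold change was 0.92 (SE 0.31, 95% interval 0.18 to 1.67), or 1.90 times, with an unadjusted p of 0.0224 and an adjusted p of 0.288. It was between 0.62 and 1.14 with each library left out in turn and 0.61 without both libraries with pancreatic or adipose transcripts. Of its start sites RefSeq gives 1 window, which is shown because its 26 CpG dinucleotides place it among CpG-rich starts (84.5% of all windows hold as few or fewer), with its 2 GC boxes in capitals.

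Plagl1, chr10:13090582-13090881, plus strand: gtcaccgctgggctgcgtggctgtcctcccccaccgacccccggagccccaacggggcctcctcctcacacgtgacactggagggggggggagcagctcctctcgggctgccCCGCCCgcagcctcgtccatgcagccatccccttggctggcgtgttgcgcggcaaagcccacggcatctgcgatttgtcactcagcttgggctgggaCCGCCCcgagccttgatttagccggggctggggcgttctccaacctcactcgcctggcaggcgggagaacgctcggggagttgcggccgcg

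*Peg3* encodes a large zinc finger protein expressed from the paternal copy. It lies on chromosome 7 from 6703892 to 6730431, on the minus strand. It had 347, 191 and 244 counts in the *Apc1322T* libraries and 228, 268 and 396 counts in the *ApcMin* libraries. On the log2 CPM scale these are 3.68, 3.19 and 3.43 against 2.69, 3.41 and 3.65, and *ApcMin* replicate 1, the library with pancreatic transcripts, was the lowest of all. The log2 fold change was -0.15 (SE 0.27, adjusted p = 0.810), and it was 0.09 without that library.

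*Mest* encodes a protein of the alpha/beta hydrolase fold found in fetal mesoderm. The gene is found on chromosome 6 from 30723547 to 30748465, on the plus strand. Its counts were 110, 19 and 22 in *Apc1322T* replicates 1, 2 and 3, and 94, 33 and 44 in *ApcMin* replicates 1, 2 and 3. Replicate 1 was the highest library in each genotype, with log2 CPM of 2.04 and 1.43, where the other 4 libraries lay between -0.03 and 0.55. This spread left the genotype difference poorly determined, with a log2 fold change of -0.16 (SE 0.66, 95% interval -1.73 to 1.42, adjusted p = 0.921). Without *Apc1322T* replicate 1 the value was 0.93. Exons of *Mest* overlap those of *Copg2* on the opposite strand, and the estimated counts of both genes were fractional but summed to within 0.01 of a whole number in all 6 libraries, as in *Apc1322T* replicate 2 with 18.59 and 1261.41. Some reads were therefore divided between the genes. *Copg2* itself was level, with a log2 fold change of 0.01 (SE 0.07).

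*Dlk1* encodes a transmembrane protein of the Notch ligand family that is shed in soluble form and holds progenitors undifferentiated. Its locus runs on chromosome 12 from 109452823 to 109463336, on the plus strand, 77.7 kb from *Meg3*. It had 5, 8 and 0 counts in the *Apc1322T* libraries and 8, 15 and 12 counts in the *ApcMin* libraries. The 0 in *Apc1322T* replicate 3 allows a level of up to 0.122 CPM, and the highest library reached only 0.59 CPM. The genotypes overlapped. The gene did not pass the filter on low counts of edgeR, and DESeq2 gave a log2 fold change of 1.07 (SE 1.13) with an adjusted p of 0.713.

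**Figure D2:**
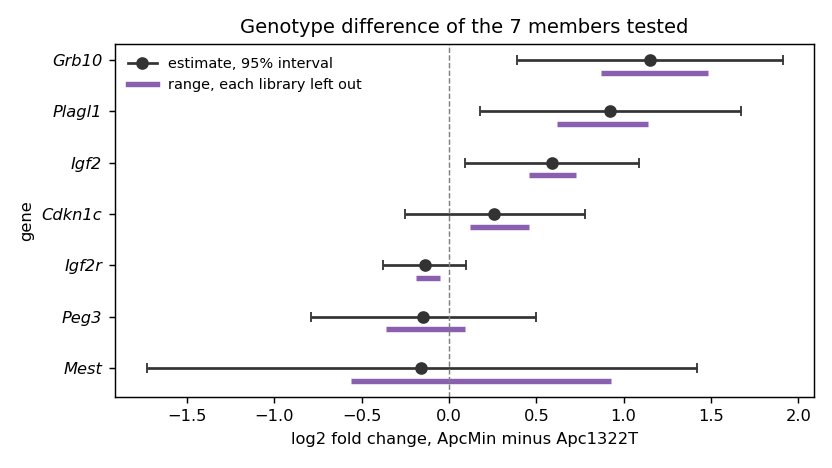
Log2 fold change, *ApcMin* minus *Apc1322T*, of the 7 genes tested, with points for the estimate of edgeR's quasi-likelihood fit, thin bars for its 95% interval and thick bars for the range of estimates when each of the 6 libraries was left out in turn. The unadjusted interval lies above 0 for *Grb10* (0.39 to 1.91), *Plagl1* (0.18 to 1.67) and *Igf2* (0.09 to 1.09), and the thick bar crosses 0 for *Peg3* and *Mest*.

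The levels of *Grb10*, *Plagl1* and *Igf2* were set beside the fibroblast markers of the same library, all 8 of which had a higher estimate in *ApcMin* although none passed the test. The mean log2 CPM of the 8 markers was 6.89, 5.79 and 6.21 in *Apc1322T* replicates 1, 2 and 3, and 7.87, 6.59 and 6.98 in *ApcMin* replicates 1, 2 and 3. The highest library for these markers, *ApcMin* replicate 1, was also the highest for all 3 genes. Within *Apc1322T*, *Grb10* was highest (2.68) in replicate 1, as the markers were, but *Plagl1* was lowest there (0.99). *Igf2* was highest in replicate 2 (2.57), where the markers were lowest. The marker mean was itself 0.85 higher in *ApcMin*, with overlap, and this enters each difference relative to it. Relative to this mean, *Grb10* stood at -4.21, -3.87 and -4.34 in *Apc1322T* and at -4.09, -3.62 and -3.81 in *ApcMin*. The difference between genotypes was then 0.30 for *Grb10*, -0.01 for *Plagl1* and -0.27 for *Igf2*, and the libraries of the genotypes overlapped for each. For *Igf2r*, *Cdkn1c*, *Peg3* and *Mest* the difference relative to the markers was -0.99, -0.58, -1.03 and -0.72, also with overlap. The contribution of stromal cells to the genotype differences was not tested.

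**Figure D3:**
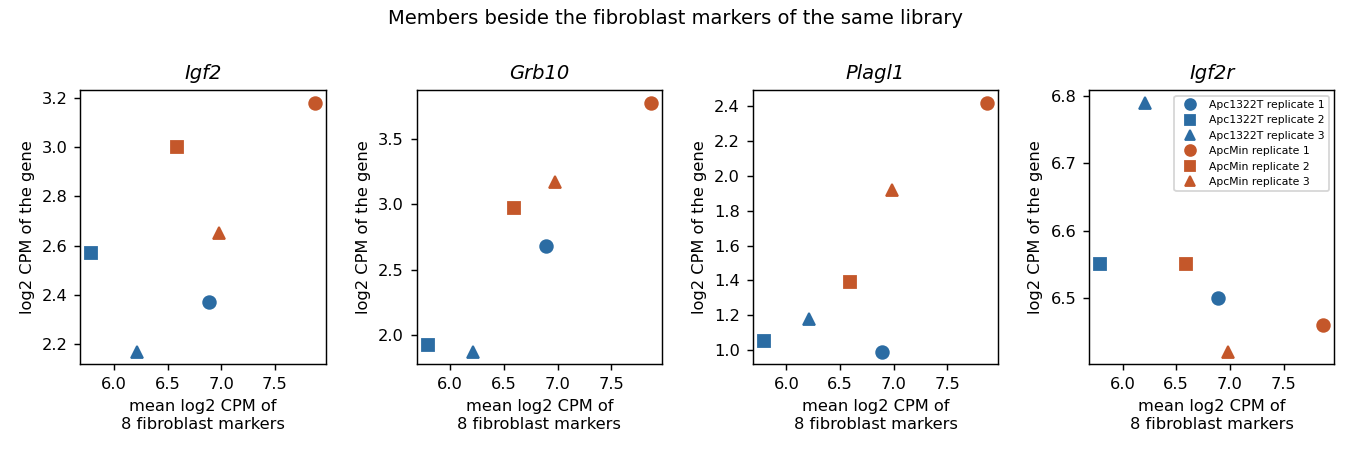
Log2 CPM of *Igf2*, *Grb10*, *Plagl1* and *Igf2r* (vertical axes, each with its own scale) against the mean log2 CPM of 8 fibroblast markers in the same library (horizontal axes), 1 point a library, blue for *Apc1322T* and orange for *ApcMin*. *ApcMin* replicate 1, at 7.87, is at the top right for *Igf2*, *Grb10* and *Plagl1*, whereas *Igf2r* stays within 6.42 to 6.79. Within *Apc1322T*, *Igf2* is highest at the lowest marker mean (5.79). At the highest (6.89), *Plagl1* is lowest and *Grb10* highest.

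The genes whose levels over the 6 libraries most resembled those of the 3 most variable of the 7 tested members were found by the root mean square (RMS) difference of log2 CPM after each gene was centred on its own mean. This is a description over 6 libraries that share depth and tissue makeup, and these neighbours were chosen for their likeness. For *Mest* the nearest were *Hbb-bs* (RMS 0.19), *Hbb-bt* (0.23) and *Hba-a2* (0.23), which encode beta and alpha chains of haemoglobin, where the median over all tested genes was 0.79. *Hbb-bs* had 14431, 3488 and 3786 counts in *Apc1322T* replicates 1, 2 and 3, and 16465, 6901 and 7214 in *ApcMin* replicates 1, 2 and 3. As with *Mest*, replicate 1 was the highest of each genotype. For *Grb10* the nearest were *Ssc5d* (0.09), *Lgals1* (0.14), which encodes galectin-1, and the pseudogene *Gm19587* (0.14), against a median of 0.71. *Lgals1* had 900, 469 and 523 counts in the *Apc1322T* libraries and 2309, 1037 and 1461 in the *ApcMin* libraries. For *Plagl1* the nearest were *Gpr171* (0.09), *Lrrn4cl* (0.12) and *C130050O18Rik* (0.13), against a median of 0.56.

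**Figure D4:**
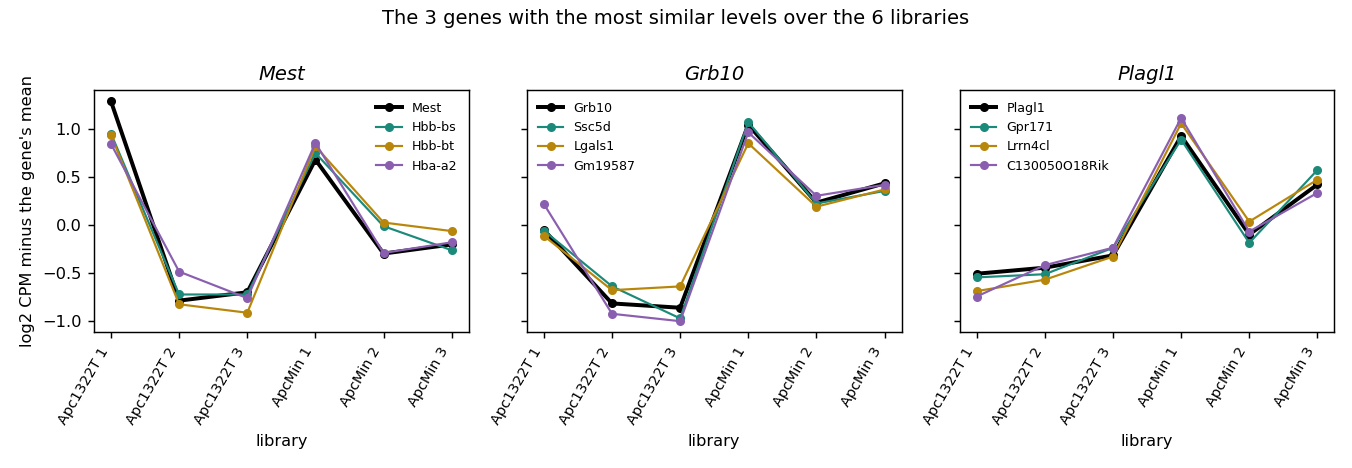
Log2 CPM minus each gene's mean over the 6 libraries (vertical axis) in each library (horizontal axis) for *Mest*, *Grb10* and *Plagl1* (black) and the 3 tested genes nearest to each (colours), with lines joining a gene's points for legibility only. *Mest* and its haemoglobin neighbours are highest in replicate 1 of both genotypes, and the *Grb10* and *Plagl1* sets in *ApcMin* replicate 1.

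The wider IGF pathway in which *Igf2*, *Igf2r* and *Grb10* act was described with 22 further genes for ligands, receptors, binding proteins, proteases and RNA-binding proteins, all of which were tested. The estimate was above 0 for 21, against 52.4% of all genes, and below 0 for 1 (*Igfbp2*, -0.11), with a median log2 fold change of 0.53 against 0.02 over all genes. None passed the threshold in edgeR or DESeq2. At an unadjusted p under 0.05, 5 were higher in *ApcMin* (7.49% of all genes) and 0 lower (7.60%). The *ApcMin* libraries were all above the others for 2 of the 22, a share no larger than the 11.0% of all genes. As none passed, the 3 genes of smallest p are given. *Irs1*, the docking protein that relays the signal of the IGF1 and insulin receptors, had 139, 70 and 95 counts in the *Apc1322T* libraries and 228, 205 and 195 in the *ApcMin* libraries, a log2 fold change of 0.71 (SE 0.23, adjusted p = 0.287). *Igf2bp1*, an oncofetal protein that binds *Igf2* mRNA, had 60, 22 and 23 counts against 90, 72 and 270, with the last library far above the rest and a log2 fold change of 1.69 (SE 0.59, adjusted p = 0.304). *Htra1*, a secreted protease that cleaves IGF-binding proteins, had 1942, 1123 and 1220 counts against 2544, 3183 and 2562. Its log2 CPM overlapped between genotypes, with a log2 fold change of 0.64 (SE 0.24, adjusted p = 0.311).

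Further genes of the pathway are named after their values were seen. *Igf1*, the sister ligand that stromal cells make, had 610, 179 and 299 counts in the *Apc1322T* libraries and 1106, 510 and 1230 in the *ApcMin* libraries, with a log2 fold change of 1.03 (SE 0.40, adjusted p = 0.318) and overlapping libraries on the log2 CPM scale. The receptors were nearer to level, with log2 fold changes of 0.16 (SE 0.22) for *Igf1r* and 0.06 (SE 0.10) for *Insr*. The estimates for the binding proteins *Igfbp4*, *Igfbp5* and *Igfbp7* were 0.53, 0.31 and 0.53. The fibroblast, smooth muscle and endothelial markers, with medians of 0.92, 0.69 and 0.58, had estimates in the same direction as 21 of these 22 genes, also with none past the test, and their part in it was not tested.

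Of 54 other genes imprinted in mouse, 48 were matched to a row and 33 were tested. They were evenly divided, with 16 estimates above 0, 17 below 0 and a median log2 fold change of -0.02. At an unadjusted p under 0.05, 4 were higher (7.49% of all genes) and 3 lower (7.60%) in *ApcMin*, and 0 passed the threshold in edgeR. DESeq2 called 1 of them, *Impact*, where it called 1.11% of all genes. The *ApcMin* libraries were all above the others for 5 of the 33 (11.0% of all genes) and all below for 4 (9.96%). The 3 of smallest p were *Impact*, *Snrpn* and *Slc22a18*. *Impact*, a paternally expressed regulator of translation on chromosome 18, had 397, 243 and 261 counts in the *Apc1322T* libraries and 706, 490 and 714 in the *ApcMin* libraries. All *ApcMin* libraries lay above the others, with a log2 fold change of 0.71 (SE 0.14), an adjusted p of 0.257 with edgeR's quasi-likelihood test and of 0.00942 with DESeq2's Wald test. *Apc* lies on the same chromosome, and whether this bears on *Impact* was not tested. *Snrpn*, a paternally expressed splicing protein gene of the Prader-Willi region, had log2 CPM of 4.27, 4.37 and 4.35 in *Apc1322T* and 3.92, 3.90 and 3.90 in *ApcMin*. Its libraries were thus tightly grouped and lower in *ApcMin*, with a log2 fold change of -0.43 (SE 0.09, adjusted p = 0.257). *Snrpn* shares its transcripts with *Snurf*, so how reads were divided between these genes is uncertain. *Snurf*, named after its values were seen, was also lower in every *ApcMin* library, with an estimate of -0.44 (SE 0.23). *Slc22a18*, a maternally expressed transporter gene in the region of *Cdkn1c*, had log2 CPM of 6.37, 6.97 and 6.66 against 6.07, 6.08 and 6.17, again lower in every *ApcMin* library, with a log2 fold change of -0.58 (SE 0.15, adjusted p = 0.276). The other tested genes of the list in that region, named after their values were seen, had estimates on both sides of 0. *Osbpl5* was higher in every *ApcMin* library, with an estimate of 0.45 (SE 0.12, adjusted p = 0.279), and those of *Nap1l4*, *Phlda2*, *Kcnq1*, *Tssc4*, *Ascl2* and *Cd81* were 0.17, 0.03, -0.02, -0.07, -0.07 and -0.09, with overlapping libraries.

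Among genes for proteins that act on imprints or on DNA methylation, all 16 listed were tested. Of these, 14 had an estimate above 0 (52.4% of all genes), with a median log2 fold change of 0.16. None passed the threshold in edgeR or DESeq2. At an unadjusted p under 0.05, 4 were higher in *ApcMin* (7.49% of all genes) and 0 lower (7.60%). *Tet2*, which oxidises methylated cytosine, had log2 CPM of 4.31, 4.41 and 4.46 in *Apc1322T* and 4.56, 4.90 and 4.77 in *ApcMin* (log2 fold change 0.36, SE 0.12, adjusted p = 0.287). *Zfp57*, a zinc finger protein that protects imprints in the embryo, had only 33, 24 and 36 counts against 148, 49 and 75 (log2 fold change 1.10, SE 0.37, adjusted p = 0.288). *Setdb1*, which methylates histone H3 at such sites, had log2 CPM of 5.17, 5.14 and 5.24 against 5.40, 5.36 and 5.44 (log2 fold change 0.22, SE 0.08, adjusted p = 0.302). The libraries of the genotypes did not overlap for these 3 genes, which were picked for the smallest p. Over the 16, the *ApcMin* libraries were all above the others for 5 (11.0% of all genes) and all below for 0 (9.96%). *Dnmt1*, which copies DNA methylation when cells divide and is named after its values were seen, had an estimate of 0.10 (SE 0.11).

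**Figure D5:**
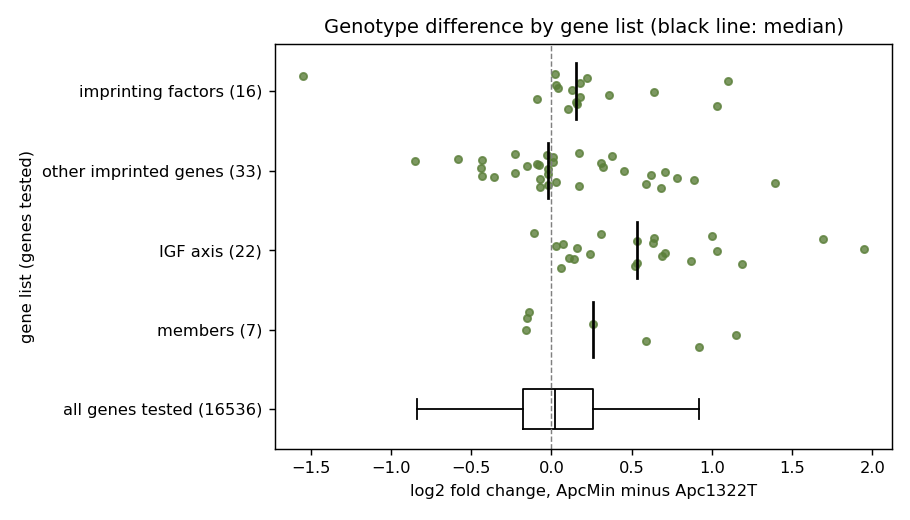
Log2 fold change, *ApcMin* minus *Apc1322T* (horizontal axis), of each tested gene in 4 lists (points, with vertical scatter for legibility only and a black line at the median) above a box plot of all 16536 tested genes (box: quartiles, whiskers: up to 1.5 interquartile ranges). The medians are 0.26 for the 7 imprinted growth genes, 0.53 for the 22 IGF pathway genes, -0.02 for the 33 other imprinted genes and 0.16 for the 16 imprinting factors.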

How the data were processed

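Libraries were made with a strand-specific kit from excised adenomas and sequenced as single-end reads. The authors quantified the reads with Salmon against the GRCm38 transcriptome (GRCm38.p6 in the submitters' processing notes) and deposited estimated counts per gene, not normalised, with the strand setting not given in the sources used here. Of these values, 29.4% are more than 0.01 from a whole number.

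Groups and replicate numbers came from the sample titles. The estimated counts were rounded, genes were kept with filterByExpr (minimum count 10, minimum total count 15), normalised by TMM and tested with edgeR 4.0.16 (quasi-likelihood, robust) in R 4.3.3, with Benjamini-Hochberg adjustment over all 16536 genes tested and a threshold of 0.01. A standard error was taken as the size of the estimate over the root of its F statistic. DESeq2 1.42.0, limma-voom (limma 3.58.1), other normalisations and filters, a replicate block and each library left out in turn were alternatives. CPM, RPKM and log2 CPM (prior count 2) used TMM-scaled library sizes. RPKM used the merged exons of GENCODE M21, which supplied symbols for 34582 of 34866 rows. Promoter windows are from RefSeq (GRCm38.p6), which held 15 windows for 8 of the 10 members.

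The members, gene lists and tests were chosen with earlier results of these data known. Genes named are the members, and from each list those past the threshold or, failing that, the 3 of smallest p, apart from those said to be named after their values were seen. Comparisons of *Igf2* with *H19* and of *Dlk1* with *Meg3* had been planned and were not made, as *H19* and *Meg3* were not analysed here. Tested on counts simulated from these libraries (16280 genes), edgeR recovered 82.1%, 91% and 95.5% of genes given a log2 change of 1.5, 2 and 3. The changes were given only to genes with higher mean counts than *Mest* and *Plagl1*. All were larger than the largest estimate of the members, 1.15 for *Grb10*. Counts were also drawn independently for each gene, so variation that genes share, such as tissue makeup, was not copied. With the real libraries the same test called 0 of 16536 genes. These shares therefore do not give the power to detect differences in these libraries, whether of the members' size or larger.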

Additional observations from a re-analysis of the deposited data

How the results depend on the processing

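The 7 tested members did not pass an adjusted p under 0.01 under any alternative run. At an adjusted p under 0.05 none passed in edgeR with all 6 libraries, and *Grb10* did in DESeq2 (0.0410). *Igf2*, *Grb10*, *Plagl1* and *Cdkn1c* kept an estimate above 0, and *Igf2r* below 0, in all 15 settings, with ranges of 0.46 to 0.73, 0.74 to 1.48, 0.61 to 1.14, 0.12 to 0.46 and -0.19 to -0.05. *Mest* changed sign to 0.10 with limma-voom, 0.11 with the replicate block, 0.93 without *Apc1322T* replicate 1 and 0.02 without *ApcMin* replicate 2, and *Peg3* to 0.09 without *ApcMin* replicate 1. With each library left out *Mest* ranged from -0.56 to 0.93 and *Peg3* from -0.36 to 0.09. The cause was not tested. Over all genes, 194 were called by DESeq2, 1 without a filter on low counts and 1 at an adjusted p under 0.05. With each library left out in turn, all genes called numbered 0 to 1, the members' median was 0.120 to 0.596, the members at an unadjusted p under 0.05 numbered 1 to 3 and those with no overlap 3 to 5. A lack of overlap is reached more easily with fewer libraries. Leaving out the 2 libraries with pancreatic or adipose genes, an alternative chosen after seeing the data, gave 0 members at an unadjusted p under 0.05 with 2 libraries a genotype. The difference of *Igf2* relative to *Igf2r* was 0.53 to 0.85 with each library left out. Replicate numbers are shared by the genotypes, but deviations of same-numbered libraries correlated at -0.014, 0.164 and -0.286, so the numbers were not taken to pair the libraries, nor did every library correlate best with its own number. With the replicate block, 0 genes were called, the members' median was 0.265 and *Igf2* relative to *Igf2r* was 0.71 (p = 0.25 in the exact permutation test over pairs, the smallest it allows). Depth limits *Dlk1*, which had at most 15 counts in a library.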
